A study of Mus musculus with 6 samples.

Results

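The genes described here are 31 members of the hypoxia-inducible factor (HIF) pathway in AtT-20 iPAM cells: the HIF subunits, the oxygen sensors that act on them, and HIF target genes that are not glycolytic enzymes. They were taken by symbol from the 23349 rows of the deposited expression table, and each of the 31 was found once. AtT-20 is a mouse pituitary tumour line of corticotropes, which make pro-opiomelanocortin, the precursor of adrenocorticotropic hormone. In the iPAM line doxycycline switches on PAM (peptidylglycine alpha-amidating monooxygenase), the enzyme that amidates peptide ends in secretory granules. Induced cells (3 libraries) were treated for 48 h with doxycycline (4 micrograms per ml), and basal cells (3 libraries) had PAM at its basal level. Both groups were passaged in DMEM-F12 with serum, antibiotics, G418 and hygromycin, and RNA came from dense wells. Doxycycline and raised PAM cannot be told apart, since no group had one without the other. Separate cultures are not stated for the libraries of a group, and the spread behind each p-value may therefore be technical. In bulk RNA, fewer cells of a type and less RNA per cell cannot be told apart.

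HIF is a transcription factor made of an oxygen-regulated alpha subunit and a constant partner, Arnt. When oxygen is plentiful, the prolyl hydroxylases Egln1, Egln2 and Egln3 mark the alpha subunit for the ubiquitin ligase of Vhl, and the asparaginyl hydroxylase Hif1an blocks its coactivators. These hydroxylases need oxygen, iron and 2-oxoglutarate and are kept active by ascorbate, whereas PAM needs oxygen, copper and ascorbate. When oxygen is short, HIF binds a short core motif near its targets and raises genes for vessel growth, pH control, collagen modification, glycogen storage and mitochondrial turnover. Because much of this control acts on the protein, the level of the Hif1a transcript does not report HIF activity.

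Values are in TPM, a gene's share of its library's total, scaled so that each library adds up to 1000000. They keep no sequencing depth, and the labels state 16.6 M reads per library. Differences are log2 differences, induced minus basal, on log2(TPM + 1), tested with limma over the 12400 genes that averaged 1 TPM or more. Pam checked the labels: it stood at 507, 399 and 258 TPM in induced libraries, against 92.6, 82.8 and 66.9 TPM in basal libraries, so every induced library was higher. An exact two-sided permutation test of these 6 values gave p = 0.1, the smallest that 3 against 3 allows. Markers fitted the corticotrope label, with 7 of 8 corticotrope genes at a mean of at least 1 TPM and 2 of 10 markers of other pituitary cells. Of 12 markers of fibroblasts, endothelium and blood cells, 2 reached a mean of 1 TPM, Cd68 and Col1a1. Cd68 had 2.38, 1.22 and 0.895 TPM in induced libraries, against 8.39, 8.24 and 7.39 TPM in basal libraries. Col1a1 had 1.59, 1.76 and 1.33 TPM in induced libraries, against 2.52, 4.03 and 3.52 TPM in basal libraries. The list summed to 3.61 to 4.70 TPM in induced libraries and 12.3 to 13.6 TPM in basal libraries, a difference mostly from Cd68 and Col1a1. Pecam1 and Tek were also lower, below 1 TPM, while Itgam and Hba-a1 were read only in induced libraries. Dcn, Pdgfra and Cdh5 were at 0 in all 6 libraries. The part of these markers in the results below was not tested.

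Libraries are called by the number in their column name. Those numbered 3 stood apart in both groups: deviations from the group mean, over the 12400 genes, correlated at 0.72 between induced 3 and basal 3, and at -0.61 to -0.33 between either of them and the libraries numbered 1 or 2 of the other group. Deviations within a group cancel out, so the negative values follow in part from the positive one. Because the libraries numbered 3 deviated together, counts are also given with the column number as a block in the fit. The block compares libraries of equal number. Counts are also given without both libraries numbered 3.

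The core motifs of HIF binding, ACGTG and GCGTG, were searched in the 250 bases before each RefSeq transcript start (GRCm38.p6), on both strands. RefSeq windows were found for 24 of the 31 members, 29 windows in all. Epas1, Bnip3l, Ndrg1, Plod2, Kdm4b, Stc1 and Loxl2 had none. At least 1 core motif stood in 21 of these 29 windows (72.4%), as in 38.6% of all 32851 windows; ACGTG stood in 51.7% of the member windows and 16.6% of all, and GCGTG in 62.1% and 28.2%. The member windows were also richer in G and C, with a median of 61.6% against 52.4%, and the part of this in the motif count was not tested. ACGTG also lies within the E-box CACGTG, which other factors bind, so a match is only a stretch of letters. The windows below belong to the 4 tested members with the smallest p that have one (Ndrg1 has none here), and to the 2 with the smallest difference, Hif1an and Egln2. Each runs 5′ to 3′ towards the start of the gene, with core motifs of either strand in capitals.

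Ddit4, chr10:59951771-59952020, minus strand: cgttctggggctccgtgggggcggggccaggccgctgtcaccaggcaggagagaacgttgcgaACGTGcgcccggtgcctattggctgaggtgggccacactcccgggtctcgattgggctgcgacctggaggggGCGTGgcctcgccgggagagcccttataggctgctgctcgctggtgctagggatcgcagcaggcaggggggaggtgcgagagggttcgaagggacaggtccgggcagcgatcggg
Ppp1r3c, chr19:36736605-36736854, minus strand: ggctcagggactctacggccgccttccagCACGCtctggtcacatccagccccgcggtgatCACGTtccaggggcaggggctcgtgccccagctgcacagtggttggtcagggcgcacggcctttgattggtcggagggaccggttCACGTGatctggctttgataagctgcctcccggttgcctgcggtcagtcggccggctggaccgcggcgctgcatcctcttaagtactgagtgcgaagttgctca
Car9, chr4:43506776-43507025, plus strand: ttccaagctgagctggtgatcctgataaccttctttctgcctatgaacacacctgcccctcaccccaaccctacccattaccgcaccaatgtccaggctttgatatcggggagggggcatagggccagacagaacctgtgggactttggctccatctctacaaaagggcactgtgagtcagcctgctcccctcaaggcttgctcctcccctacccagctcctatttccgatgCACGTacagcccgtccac
Gbe1, chr16:70313699-70313948, plus strand: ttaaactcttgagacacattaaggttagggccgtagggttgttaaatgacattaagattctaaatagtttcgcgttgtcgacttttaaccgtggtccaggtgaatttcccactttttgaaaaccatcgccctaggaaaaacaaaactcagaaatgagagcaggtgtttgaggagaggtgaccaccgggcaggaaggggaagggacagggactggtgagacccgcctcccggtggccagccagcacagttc
Hif1an, chr19:44562604-44562853, plus strand: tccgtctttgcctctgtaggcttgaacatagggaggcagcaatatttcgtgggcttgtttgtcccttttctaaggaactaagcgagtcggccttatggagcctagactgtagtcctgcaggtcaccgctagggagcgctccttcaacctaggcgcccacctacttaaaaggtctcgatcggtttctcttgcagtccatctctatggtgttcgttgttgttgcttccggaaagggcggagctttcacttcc
Egln2, chr7:27166803-27167052, minus strand: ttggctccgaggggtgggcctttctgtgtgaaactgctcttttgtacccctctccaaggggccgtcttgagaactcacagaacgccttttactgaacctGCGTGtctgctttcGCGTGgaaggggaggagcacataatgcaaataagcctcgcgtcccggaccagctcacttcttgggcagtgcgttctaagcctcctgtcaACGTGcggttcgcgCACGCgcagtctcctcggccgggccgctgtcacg

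The Ddit4 window holds 1 ACGTG and 1 GCGTG, and the Ppp1r3c window holds 3 ACGTG and 1 GCGTG, counted over both strands, with CACGTG among them. The Car9 window has a single match, CACGT, beginning 18 bases before the start, while the windows of Gbe1 and Hif1an have none. Egln2, whose level hardly differed between groups, has 4 matches, and Gbe1, with a large difference, has none. Among tested members whose induced libraries all lay below all basal ones, 10 of 13 windows held a core motif (76.9%), against 10 of 14 windows of the other tested members (71.4%).

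In induced cells 4 of the 28 tested members fell and 0 rose: Ddit4, Ppp1r3c, Ndrg1 and Car9 (limma, adjusted p under 0.05 over all genes tested). Over all genes tested, 1.06% fell and 0.129% rose by the same rule, 1.19% in either direction. At an unadjusted p under 0.05, 15 members were lower and 0 higher, against 9.56% of all genes tested that were lower. The median log2 difference of the 28 members was -0.75, against -0.04 over all genes tested, and 3.95% of all genes tested lay below the members' median. In 26 of the 28 the difference was negative, as in 55.1% of all genes tested. By mean TPM, 16 members were at least 1.5-fold lower in induced cells and 7 at least 2-fold lower, compared with 8.37% and 2.74% of all genes tested. For 14 members every induced library lay below every basal one, as for 12.6% of all genes tested, and for 1, Egln2, every induced library lay above, as for 9.04% of all genes tested. With the column number as a block, 21 members fell and 0 rose, where 14% of all genes tested fell and 8.23% rose. Without both libraries numbered 3, 16 members fell and 0 rose, where 4.04% of all genes tested fell and 1.51% rose. Without basal 1, basal 2, induced 1 or induced 2, 0 members passed in limma, and of all 12400 genes 0, 0, 0 and 1 passed. Members with an unadjusted p under 0.05 then numbered 14, 14, 16 and 15, and such genes among all 12400 numbered 1400, 1130, 1562 and 1452.

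**Figure D1:**
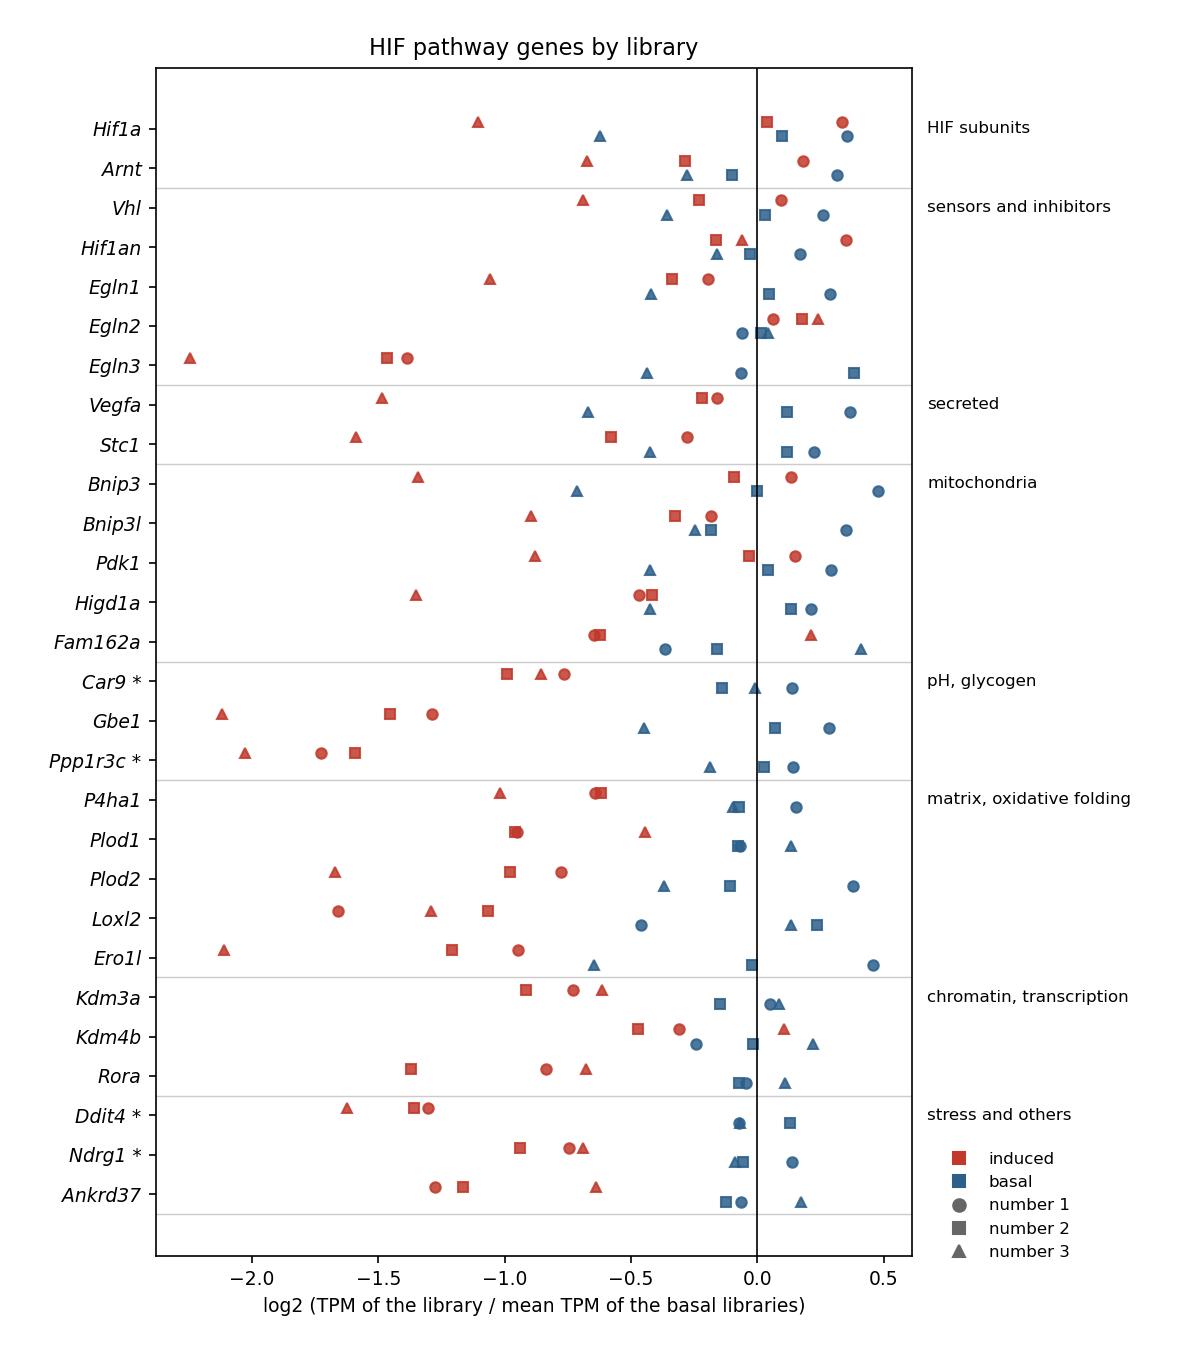
Each point is 1 library's log2 ratio of its TPM to the mean TPM of the basal libraries (x axis), for the 28 tested members by role (rows); red is induced, blue basal, and the shape gives the column number. An asterisk marks the 4 members with limma adjusted p under 0.05, and the triangles of number 3 lie lowest in both groups for 16 members.

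Of the subunits, Hif1a did not pass the test. It stood at 33.2, 27.0 and 12.2 TPM in induced libraries, against 33.7, 28.2 and 17.1 TPM in basal libraries. The groups overlapped, and the library numbered 3 was the lowest of each. The log2 difference was -0.18 (95% confidence interval -1.11 to 0.76; limma adjusted p = 0.916, and 0.301 with the block), and its sign turned without basal 1 or induced 3 and on the scale of the authors' DESeq2 table. Arnt, the constant partner, averaged 22.8 ± 6.79 TPM in induced and 26.5 ± 5.75 TPM in basal cells (SD, n = 3 each), with limma adjusted p = 0.776. Epas1, the second alpha subunit, which is best known from endothelium, stayed under 0.1 TPM, with 0, 0 and 0.0757 TPM in induced libraries and 0, 0.0457 and 0.0530 TPM in basal ones, and was not tested.

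The sensors divided by gene. Egln3, a hydroxylase that is itself a HIF target, was 3.14-fold lower by mean TPM without passing the limma threshold. It had 3.98, 3.76 and 2.19 TPM in induced libraries, against 9.94, 13.6 and 7.67 TPM in basal libraries. All induced values lay below all basal ones, at a log2 difference of -1.40 (SE 0.26; limma adjusted p = 0.0641, and 4.4e-04 with the block). Egln1, the main hydroxylase of HIF alpha and also a HIF target, averaged 137 ± 39.8 TPM in induced and 191 ± 45.7 TPM in basal cells (SD, n = 3 each; limma adjusted p = 0.483, and 0.00483 with the block). Egln2, a further prolyl hydroxylase, had 71.4, 77.4 and 80.8 TPM in induced libraries, against 65.7, 69.1 and 70.5 TPM in basal libraries. Its groups did not overlap, yet the log2 difference of 0.16 did not pass (limma adjusted p = 0.649, and 0.220 with the block). Vhl and Hif1an had log2 differences of -0.25 and 0.05 (limma adjusted p = 0.736 and 0.956), and neither passed with the block.

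The targets that fell serve growth control, glycogen, stress and pH. Ddit4, an inhibitor of mTOR signalling, had 760, 732 and 610 TPM in induced libraries, against 1788, 2055 and 1790 TPM in basal libraries. All induced libraries lay far below all basal ones, and the log2 difference was -1.42 (SE 0.13; limma adjusted p = 0.0135). Ppp1r3c, a subunit that brings a protein phosphatase to glycogen and favours its synthesis, had 32.3, 35.5 and 26.2 TPM in induced libraries, against 118, 109 and 94.1 TPM in basal libraries. It had the most negative log2 difference of the members, -1.74 (SE 0.17; limma adjusted p = 0.0135), and was 3.41-fold lower by mean TPM. Ddit4 and Ppp1r3c ranked 11 and 12 by p among the 12400 genes. Ndrg1, a protein induced by hypoxia and differentiation, had 491, 429 and 510 TPM in induced libraries, against 903, 790 and 773 TPM in basal libraries. Its log2 difference was -0.79 (SE 0.13; limma adjusted p = 0.0455). Car9, a cell-surface carbonic anhydrase that helps export acid, had 40.5, 34.7 and 38.1 TPM in induced libraries, against 75.8, 62.6 and 68.4 TPM in basal libraries. The groups were well separated, with a log2 difference of -0.85 (SE 0.14; limma adjusted p = 0.0470).

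These calls rest on few libraries. Ndrg1 and Car9 lay close to the threshold, and leaving out single libraries gave limma adjusted p from 0.0342 to 0.251 for Ndrg1 and from 0.0454 to 0.235 for Car9, below 0.05 only without induced 3. For Ddit4 the same range was 0.00687 to 0.145, also below 0.05 only without induced 3, with log2 differences of -1.49 to -1.33. For Ppp1r3c it was 0.00736 to 0.145, below 0.05 only without basal 3 or induced 3, with log2 differences of -1.84 to -1.62.

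**Figure D2:**
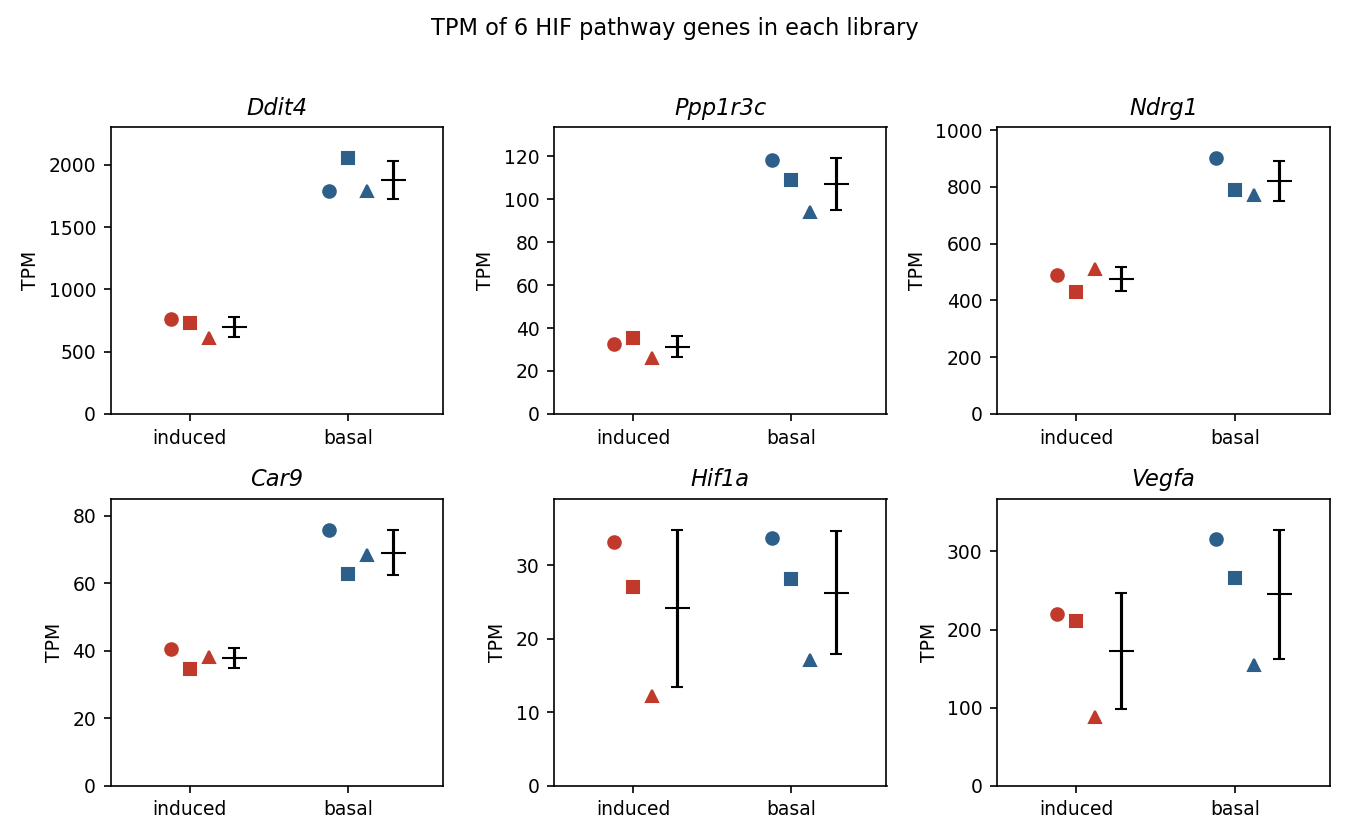
TPM (y axes, each from 0) of Ddit4, Ppp1r3c, Ndrg1, Car9, Hif1a and Vegfa in the induced and basal libraries (x axes); circles, squares and triangles are the columns numbered 1, 2 and 3, and bars are the mean ± SD (n = 3 each). The first 4 genes are separated between groups, while Hif1a and Vegfa overlap, with number 3 the lowest of both groups.

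Gbe1, the glycogen branching enzyme, stood just outside the threshold. It had 67.7, 60.4 and 38.1 TPM in induced libraries, against 201, 174 and 121 TPM in basal libraries, which is 2.99-fold lower by mean TPM. Its limma adjusted p was 0.0517, and 2.7e-05 with the block, where libraries of equal number gave induced-to-basal ratios of 0.336, 0.347 and 0.315. Gbe1 and Ppp1r3c were thus lower in every induced library than in any basal one.

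Matrix-modifying enzymes were lower as well, though none of the 4 tested passed (limma; 0 at adjusted p under 0.05, 4 at unadjusted p under 0.05, and 4 with the block). By these rules 1.06%, 9.56% and 14% of all genes tested were lower. P4ha1, a catalytic subunit of collagen prolyl hydroxylase, had 254, 258 and 196 TPM in induced libraries, against 441, 377 and 371 TPM in basal libraries. The lysyl hydroxylases that act on collagen, Plod1 and Plod2, averaged 107 ± 23.2 and 15.5 ± 4.59 TPM in induced cells, against 182 ± 15.4 and 33.0 ± 8.88 TPM in basal cells (SD, n = 3 each). Loxl2, a lysyl oxidase-like enzyme that cross-links matrix proteins, had 8.85, 13.4 and 11.4 TPM in induced libraries, against 20.3, 32.9 and 30.7 TPM in basal libraries. In all 4 every induced library lay below every basal one, as for 12.6% of all genes tested. The limma adjusted p was 0.0769 (P4ha1), 0.0972 (Plod1), 0.135 (Plod2) and 0.0654 (Loxl2). With the block it was 9.9e-04, 9.4e-04, 4.9e-04 and 1.8e-04 in the same order. P4ha2 stayed under 0.2 TPM in every library and was not tested. Ero1l, the oxidase that drives disulfide formation in the endoplasmic reticulum, had 320, 267 and 143 TPM in induced libraries, against 848, 609 and 394 TPM in basal libraries. Its limma adjusted p was 0.148, and 3.3e-05 with the block, the libraries of equal number giving ratios of 0.377, 0.438 and 0.363.

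Of the members that enter mitochondria or govern their fuel, none of 5 passed (limma; 0 at adjusted p under 0.05, 1 at unadjusted p under 0.05, and 4 with the block), and the groups overlapped for each. The shares of all genes tested that were lower by these rules were 1.06%, 9.56% and 14%. Bnip3, a receptor that marks mitochondria for autophagy, had 1023, 877 and 369 TPM in induced libraries, against 1299, 933 and 570 TPM in basal libraries. Within each group its highest library was more than 2-fold above its lowest. The log2 difference was -0.35 (SE 0.44; limma adjusted p = 0.808, and 0.0372 with the block). Its relative Bnip3l averaged 96.9 ± 23.5 TPM in induced and 131 ± 31.3 TPM in basal cells (SD, n = 3 each; limma adjusted p = 0.482, and 0.0215 with the block). Pdk1, a kinase that inhibits pyruvate dehydrogenase, averaged 78.4 ± 26.5 TPM in induced and 89.5 ± 21.6 TPM in basal cells (SD, n = 3 each) and did not pass with the block (limma adjusted p = 0.145). Higd1a, a hypoxia-induced protein of the inner membrane, had 388, 403 and 211 TPM in induced libraries, against 622, 590 and 400 TPM in basal libraries (limma adjusted p = 0.309, and 0.00115 with the block). Fam162a, a hypoxia-induced mitochondrial protein linked to cell death, had 1303, 1323 and 2359 TPM in induced libraries, against 1582, 1823 and 2712 TPM in basal libraries (limma adjusted p = 0.722, and 0.0210 with the block). Here the libraries numbered 3 were the highest of both groups, the opposite of Bnip3. On the scale of the authors' DESeq2 table, given with the deposited tables below, the differences of Bnip3, Pdk1 and Fam162a were above 0.

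The secreted factors overlapped between groups. Vegfa, the main growth factor of blood vessels, had 220, 211 and 87.6 TPM in induced libraries, against 316, 266 and 154 TPM in basal libraries. The log2 difference was -0.55 (SE 0.41; limma adjusted p = 0.632, and 0.00600 with the block), and it was -0.13 without induced 3 and -0.86 without basal 3. Stc1, the glycoprotein hormone stanniocalcin, averaged 45.6 ± 18.8 TPM in induced and 75.0 ± 16.8 TPM in basal cells (SD, n = 3 each; limma adjusted p = 0.363, and 0.00337 with the block). Car12, a second membrane carbonic anhydrase, reached at most 0.297 TPM and was not tested.

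Regulators of transcription and chromatin differed among themselves. Kdm3a, a histone lysine demethylase and HIF target, had 115, 101 and 125 TPM in induced libraries, against 198, 172 and 203 TPM in basal libraries, without overlap (limma adjusted p = 0.0630, and 5.9e-04 with the block). Kdm4b, a demethylase of a related family, averaged 41.9 ± 8.96 TPM in induced and 48.3 ± 7.75 TPM in basal cells (SD, n = 3 each; limma adjusted p = 0.731, and 0.188 with the block). Rora, a nuclear receptor of the circadian clock, had 8.10, 5.58 and 9.04 TPM in induced libraries, against 14.02, 13.8 and 15.6 TPM in basal libraries (limma adjusted p = 0.0940, and 0.00243 with the block). Ankrd37, an ankyrin repeat protein and HIF target, had 148, 159 and 229 TPM in induced libraries, against 342, 328 and 403 TPM in basal libraries, also without overlap (limma adjusted p = 0.0657, and 2.8e-04 with the block).

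Of the members, 10 are enzymes of 1 chemical family, the dioxygenases that use oxygen, iron and 2-oxoglutarate: the 3 Egln genes, Hif1an, both P4ha genes, both Plod genes, Kdm3a and Kdm4b. Of the 9 tested, 0 passed the limma threshold, 5 were lower at an unadjusted p under 0.05 and 6 fell with the block. Their median log2 difference was -0.75, and the values ran from -1.40 (Egln3) to 0.16 (Egln2). Among all 28 tested members the counts by these rules were 4, 15 and 21, and the median was also -0.75. Of all genes tested, 1.06% fell by the limma threshold, 9.56% were lower at that unadjusted p, and 14% fell with the block.

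Much of the spread within a group followed the column number. This was not particular to the members, since deviations from the group mean correlated at 0.72 between induced 3 and basal 3 over the 12400 genes. Where no share of all genes tested is given below, the count was made for the members alone. In 22 of the 28 tested members the library with the highest value had the same number in both groups; in 16 the libraries numbered 3 were the lowest of both groups, and in 7 the highest of both. The highest induced library was a median of 1.68-fold the lowest over the members, and the highest basal library a median of 1.52-fold the lowest. Ratios between libraries of equal number varied less: in 27 of 28 members the 3 ratios lay within 1.5-fold of each other. All 3 ratios were under 1 in 26 members, as in 32.6% of all genes tested, all 3 were over 1 in Egln2, and Hif1an was mixed. The labels name libraries by letter and do not tie equal numbers to a shared origin.

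**Figure D3:**
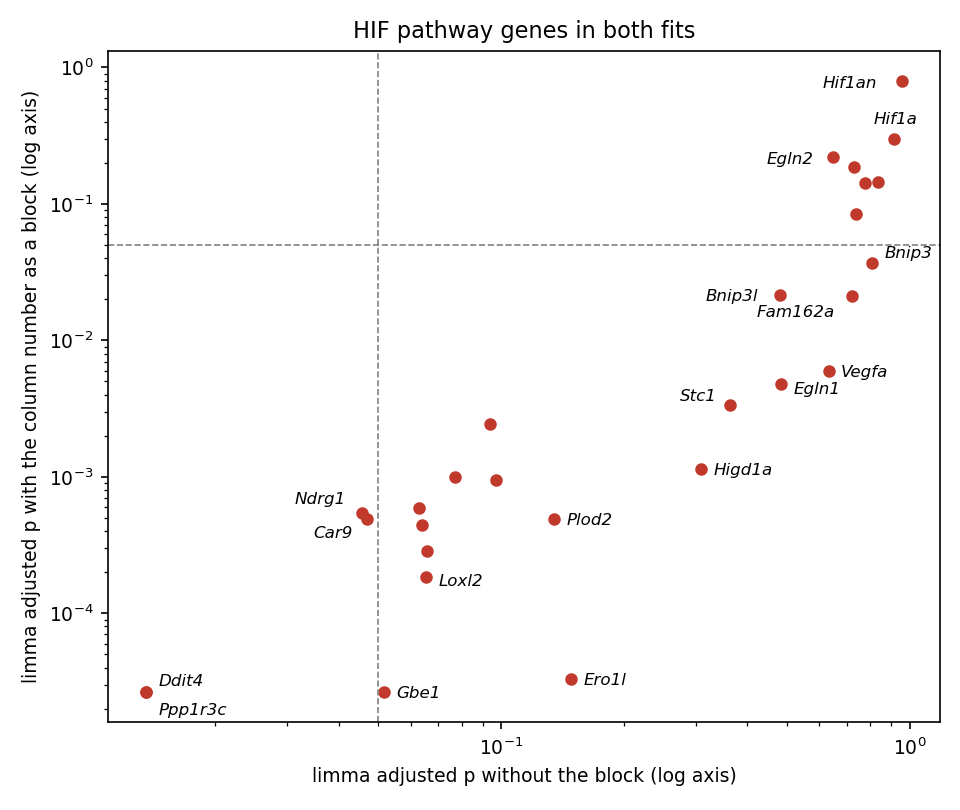
Limma adjusted p of the 28 tested members without the block (x axis) and with the column number as a block (y axis), both on log axes, with dashed lines at 0.05. The 4 members left of the vertical line passed in both fits, 17 passed with the block alone, and 7, Hif1a, Hif1an and Egln2 among them, passed in neither.

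Other genes of the pathway were read from lists. Beside them, 1.06% of all genes tested fell and 0.129% rose, and 55.1% had a negative difference. At an unadjusted limma p under 0.05, 1185 of the 12400 genes were lower and 686 higher. With the block 14% of all genes tested fell and 8.23% rose. Among other HIF targets 4 of 27 tested fell and 0 rose (median log2 difference -0.51, 25 of 27 negative; 20 fell with the block). Hilpda, a lipid droplet protein that hypoxia induces, had 78.9, 74.4 and 80.2 TPM in induced libraries, against 228, 205 and 213 TPM in basal libraries (limma adjusted p = 0.00840). Adm, a vasodilator peptide gene, and Bhlhe40, a transcriptional repressor, also fell (limma adjusted p = 0.0343 and 0.0447). Of the glycolytic targets, 1 of 19 tested, Gpi1, fell (median -0.33; 12 fell with the block), and the transporter Slc2a1 did not pass (limma adjusted p = 0.0820, and 5.1e-04 with the block). Among partners, cofactors and degradation genes of HIF, 0 of 22 tested passed the limma threshold, 4 were lower and 1 higher at an unadjusted p under 0.05, and the median was -0.07; with the block 4 fell and 1 rose. Their smallest p values belonged to Fbxw7, part of a ubiquitin ligase, and Arntl, a clock factor, at limma adjusted p of 0.0885 and 0.111, and 0.00294 and 0.00748 with the block. Hif3a, a further alpha subunit that was chosen after its values were seen, averaged 10.95 ± 2.05 TPM in induced and 20.3 ± 5.395 TPM in basal cells (SD, n = 3 each; limma adjusted p = 0.159, and 0.00158 with the block).

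**Figure D4:**
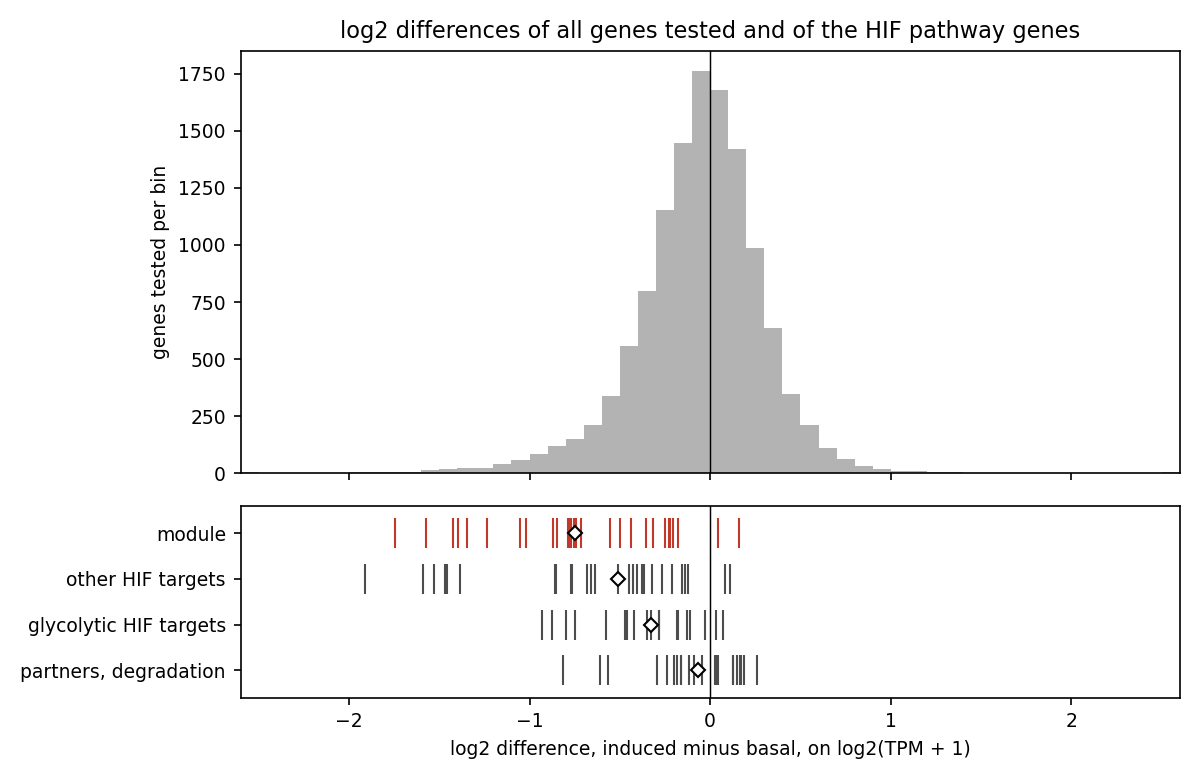
Top, number of genes tested per bin of log2 difference, induced minus basal; bottom, each tick is a gene of the module (28), of the other HIF targets (27), of the glycolytic targets (19) or of the partners and degradation genes (22), and diamonds are medians. The medians lie at -0.75, -0.51, -0.33 and -0.07, with all genes tested at -0.04.

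The authors' deposited table from Cuffdiff lists 18 of the 31 members among its 1548 genes, all 18 lower in induced cells, where 989 of the 1548 are lower. The authors' deposited table from DESeq2 lists 4 members of 195 genes, Ddit4, Ppp1r3c, Ndrg1 and Ankrd37, and all 4 are lower, where 47 of the 195 are lower. The authors' deposited table from limma lists 5 members of 146 genes, Ddit4, Ppp1r3c, Ndrg1, Car9 and Gbe1, all 5 lower, where 130 of the 146 are lower. Not all 5 are under an adjusted p of 0.05 there. The authors' limma adjusted p is 0.0114 for Ddit4 and Ppp1r3c, 0.0502 for Ndrg1 and Car9, and 0.0512 for Gbe1. These tables come from the same 6 libraries, so they are no independent evidence. The deposited expression table has 23349 genes, against 1548, 195 and 146 in the lists from Cuffdiff, DESeq2 and limma. How many genes the authors tested for each list is not known here. The member counts therefore have no exact share of all genes tested beside them. The DESeq2 table uses another scale: its log2 fold change for Ddit4 is -0.999 in the authors' deposited table, and for Ndrg1 it is -0.37. Moving the induced libraries by the median offset of that table, 0.43, put the median of all genes tested at 0.39 and that of the members at -0.32; 4 members then fell and 1, Egln2, rose, where 1% of all genes tested fell and 19% rose. Those 4 were Ddit4, Ppp1r3c, Gbe1 and Egln3, while Ndrg1 and Car9, at log2 differences of -0.36 and -0.42, no longer passed (limma adjusted p = 0.0838 and 0.0707).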

How the data were processed

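Per the labels' protocols, 3 induced and 3 basal AtT-20 iPAM libraries were prepared by AmpliSeq Library PLUS, an amplicon method that reads selected parts of transcripts, and sequenced in 1 lane. Levels are therefore compared within a gene and not between genes. The submitters' processing notes name mm10, limma and DESeq2, and further Cuffdiff 2.2.0 and Cufflinks 2.2.0, TopHat2 2.0.9 and Bowtie2 2.1.0.0; their settings and annotation are not given in the sources consulted. The deposited sheet is named for FPKM, but each library column sums to 1000000, so its values were treated as TPM. The authors' deposited tables give FPKM per group, log2 fold changes, p-values or q-values and a B score from limma, as the headers and the deposited files show; the main deposited sheet also has a ratio column. Columns carry group and number, whereas labels carry letters, so columns were matched to groups alone.

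The 12400 of 23349 genes averaging 1 TPM or more were compared on log2(TPM + 1) with limma 3.58.1 in R 4.3.3 (lmFit, eBayes with trend), with Benjamini-Hochberg adjustment over the 12400 and called at 0.05; the code was tested on simulated data. The design had been written for FPKM, and the same test serves TPM. The added 1 shrinks the differences of low genes. Of the 31 members 28 passed the level filter; Epas1, Car12 and P4ha2 did not. The members and lists were chosen with earlier results of these data known. All members are named, with up to 4 called genes of each other list or the 2 of smallest p, and Pam, Adm, Bhlhe40 and Slc2a1 whatever their values. Of these, 1 gene that the rule names is not reported here.

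The block was used because libraries of equal column number deviated together, most clearly those numbered 3. Correlations over the 12400 genes were 0.46, 0.18 and 0.72 for the numbers 1, 2 and 3. The pairing comes from these data and the column names, not from the labels. For number 2 the data do not favour it, since induced 2 correlated better with basal 1 (0.32) and basal 2 with induced 1 (0.28). Other alternatives were a pseudocount of 0.1, no filter, a filter at 5 TPM, quantile and median-ratio normalization, the per-library scale of the deposited ratio column, the median offset of the authors' deposited DESeq2 table, eBayes without a trend, leaving out libraries, and a loess correction for transcript GC content (GENCODE M21), which covered 99.03% of tested genes. Promoter windows came from RefSeq (GRCm38.p6), with Ero1l matched to Ero1a.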

Additional observations from a re-analysis of the deposited data

How the results depend on the processing

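Counts are of genes past limma adjusted p under 0.05. For all genes tested (148) they were 93 with a filter at 5 TPM, 96 on the library scale of the deposited ratio column, 2476 with the offset of the deposited DESeq2 table, 2761 with the replicate block, 688 without both libraries numbered 3, 365 with GC correction and 3369 with GC correction and the block; leaving out 1 library gave 0 to 255. For the members (4) they were 2 with the filter at 5 TPM, 2 on the library scale, 2 without the trend, 21 with the replicate block, 16 without both libraries numbered 3, 11 with GC correction and 20 with GC correction and the block; leaving out 1 library gave 0 to 8, and 1 and 8 came without basal 3 and without induced 3. For the 68 tested genes of the 3 other HIF lists (5) they were 3 without a filter, 2 on the library scale, 9 with the offset, 37 with the replicate block, 19 without both libraries numbered 3, 9 with GC correction and 37 with GC correction and the block; leaving out 1 library gave 0 to 7. The split of all genes tested, 16 higher and 132 lower, was 28 and 93 with quantile normalization, 1021 and 1740 with the block, 187 and 501 without both libraries numbered 3, 108 and 257 with GC correction, and 1635 and 1734 with GC correction and the block. The cause was not tested, other than that leaving out libraries tests with fewer samples. Ddit4, Ppp1r3c, Ndrg1 and Car9, the 4 members called without the block, stayed negative in each setting run.

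Signs turned for members called neither in the fit without the block nor in the turned fit. Among them, Bnip3 and Fam162a had log2 differences of -0.35 and -0.31 without the block. Both fell with the block (limma adjusted p = 0.0372 and 0.0210). With the offset the log2 differences were 0.25 for Hif1a, 0.20 for Arnt, 0.18 for Vhl, 0.073 for Bnip3, 0.21 for Pdk1, 0.22 for Kdm4b and 0.11 for Fam162a. Leaving out 1 library, Hif1a ran from -0.45 to 0.23 (above 0 without basal 1 or induced 3), Hif1an from -0.10 to 0.14 (below 0 without basal 3 or induced 1), Bnip3 from -0.67 to 0.099 and Pdk1 from -0.42 to 0.086 (above 0 without induced 3). The values are TPM and keep no depth, so the counting error of low members such as Egln3 is unknown.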
